A study of Mus musculus with 217 samples.

Results

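The dorsomedial striatum (DMS), the part of the mouse dorsal striatum associated with goal-directed action, was compared between the early and the late part of the light phase, when these nocturnal animals mostly rest. The animals were untreated C57BL/6J mice of both sexes, about 10 weeks old, housed with 12 h of light each day and free access to food, and killed 2 h (Zeitgeber time 2, ZT2) or 10 h (ZT10) after lights on. All libraries labelled DMS and ZT2 (12, from 6 females and 6 males) or DMS and ZT10 (11, from 5 females and 6 males) were taken, 23 of the 217 libraries of the series, and all 12101 genes of the DMS table were tested. Each library holds the total RNA of 1 mm punches of a single animal, and no animal was sampled at both times, so each time is represented by separate mice. A punch pools neurons, glia and vessels, and a change in the number of cells of a type cannot be told apart from a change in RNA per cell.

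Values are given as log2 of the DESeq2-normalised count plus 1, and a difference is ZT10 minus ZT2 on that log2 scale with its standard error (SE). It comes from a limma fit with terms for sex and for library class, and a gene was called when its Benjamini-Hochberg adjusted p over all 12101 genes was below 0.05. Libraries fell into 2 classes by the share of mitochondrial ribosomal RNA (mt-Rnr1 plus mt-Rnr2) in the normalised counts: 13 libraries of the low class held 19.01 to 27.3% and 10 of the high class 35.3 to 47.9%. The high class made up 3 of 12 libraries at ZT2 and 7 of 11 at ZT10, and in these 23 libraries it was identical with animal numbers from 31 on, a split whose meaning the labels do not give. The class itself went with a difference in 8047 genes (66.5%). Recovered depth was 37285334 to 57468484 reads per library over the listed genes, of which 17715251 to 21953205 (high class) and 27188401 to 37264892 (low class) lay outside the 10 most abundant genes.

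The libraries held striatal tissue, though the markers given here do not tell the DMS from other parts of the striatum. Genes of striatal medium spiny neurons were high in every library: Ppp1r1b, which encodes the dopamine-regulated phosphatase inhibitor DARPP-32, lay between 15.07 and 15.54, and Penk, the enkephalin precursor of the indirect pathway, between 15.51 and 16.34. Penk is also among the septum and pallidum markers counted below. Of 8 markers of cortical excitatory neurons, Tbr1, Neurod6, Neurod2 and Fezf2 were not among the listed genes.

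The circadian clock of most cells is a feedback loop in which the activators ARNTL (also called BMAL1) and CLOCK or NPAS2 switch on their own repressors, the PER and CRY proteins, and a second arm in which the nuclear receptors NR1D1 and NR1D2 shut off Arntl. The activators bind E-box sequences, and output factors such as DBP carry its rhythm to D-box sequences of other genes. In the brain, body temperature and adrenal glucocorticoids also swing over the day and act on cold-inducible, heat shock and hormone-responsive genes.

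In all, 625 genes (5.16%) differed between the times, 268 higher at ZT10 (2.21%) and 357 lower (2.95%). Before adjustment, 2161 of the 12101 genes had a p under 0.05 (limma). The differences were mostly small: the median fold among the called genes was 1.19, 38 exceeded 1.5-fold and 6 exceeded 2-fold. The 625 genes had the same sign in females, in males, in the low class and in the high class. Each of these subsets is part of the 23 libraries that gave the calls, so this agreement is not independent of them. For 27 genes (0.223%) the ranges of the ZT2 and ZT10 libraries did not overlap, and all 27 were called. Within the low class alone 374 genes were called (119 higher), 279 of them among the 625. Within the high class alone, with 3 libraries at ZT2, 51 were called (26 higher), 50 of them among the 625. Several single libraries weighed on the counts. Without the low-class ZT10 female F18, the fewest genes were called, 411, with 181 higher and 230 lower. Without the low-class ZT10 males M18 or M17, 429 (182 higher) and 435 (177 higher) were called. Without the high-class ZT2 male M31, 467 were called.

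The activators of the loop were lower late in the light phase. Of 5 measured, 3 fell and none rose (60% called, against 5.16% of all genes), with a list median of -0.17 against 0.0012 for all genes. Arntl (ENSMUSG00000055116, chromosome 7, 113207465 to 113314126, plus strand, GRCm38), the obligate partner of CLOCK, lay at 10.56, 10.81 and 10.95 (lowest, median and highest library) at ZT2 and at 9.35, 9.70 and 10.03 at ZT10. Every ZT10 library was thus below every ZT2 library, a fall of 1.10 ± 0.07 or 2.14-fold (adjusted p = 2.73e-11, limma). Npas2, the CLOCK paralog prominent in forebrain, fell by 0.27 ± 0.05 (adjusted p = 0.0022), and Clock itself fell by 0.17 ± 0.03 (adjusted p = 0.0012), both with overlapping groups. With libraries scaled to an equal sum, Clock was no longer called (adjusted p = 0.136). Rora and Rorb, receptors that switch Arntl on, differed by 0.11 ± 0.04 and -0.07 ± 0.06 and did not pass the test.

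The repressors moved the other way. Of 11 measured, 9 rose, 1 fell and 1 was not called (90.9% called, against 5.16% of all genes), with a list median of 0.48. Ciart (ENSMUSG00000038550, chromosome 3, 95878503 to 95882251, minus strand), which encodes the repressor CHRONO, had the largest rise of the named genes. It lay at 6.72, 7.36 and 7.89 at ZT2 and at 8.51, 9.19 and 9.57 at ZT10, a gap with no overlap, and rose by 1.75 ± 0.13 or 3.35-fold (adjusted p = 1.06e-09). Bhlhe40 (DEC1), which competes for E-boxes, went from 9.66, 9.86 and 10.26 to 10.43, 10.74 and 11.05, again without overlap, a rise of 0.84 ± 0.08 (adjusted p = 1.5e-07). Its paralog Bhlhe41 (DEC2) rose by 0.61 ± 0.08, with overlapping groups (adjusted p = 6.3e-06).

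The nuclear receptor arm rose as well. Nr1d1 (chromosome 11, 98767932 to 98775333, minus strand), the repressor of Arntl, lay at 10.47, 10.71 and 10.85 at ZT2 and at 11.21, 11.45 and 11.73 at ZT10, and rose by 0.83 ± 0.07 or 1.77-fold (adjusted p = 5.8e-09). Nr1d2 went from 10.81, 11.29 and 11.65 to 11.71, 12.04 and 12.35, a rise of 0.54 ± 0.06 (adjusted p = 4.8e-07). Neither gene's groups overlapped. Nr1d1 shares its locus with Thra on the other strand, and as the use of strand in counting is not given in the sources used here, reads of the pair cannot be told apart.

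Among the Period and Cryptochrome genes the members differed. Per3 rose by 0.48 ± 0.10 (adjusted p = 0.0043), Per1 by 0.40 ± 0.09 (adjusted p = 0.0051) and Cry2 by 0.24 ± 0.05 (adjusted p = 0.0019). Per2 was at 9.64, 10.36 and 10.71 at ZT2 and 9.53, 10.12 and 10.68 at ZT10, a difference of 0.06 ± 0.10 that did not pass the test (adjusted p = 0.82). Cry1 (chromosome 10, 85131700 to 85185064, minus strand) was the repressor that fell, by 0.38 ± 0.06 (adjusted p = 0.00039). In the low class it ranged from 10.25 to 10.70 at ZT2 (n = 9) and from 9.90 to 10.29 at ZT10 (n = 4). In the high class it ranged from 10.67 to 10.97 (n = 3) and from 10.13 to 10.61 (n = 7), so the times were fully apart in the high class and met only at their edges in the low class, although the pooled ranges overlapped widely. Cipc, an inhibitor of CLOCK, rose by 0.31 ± 0.06 (adjusted p = 0.0016). Without the class term Per1, Per3 and Cry1 kept their signs (0.21, 0.29 and -0.26) but not their calls (adjusted p = 0.23, 0.16 and 0.064).

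**Figure D1:**
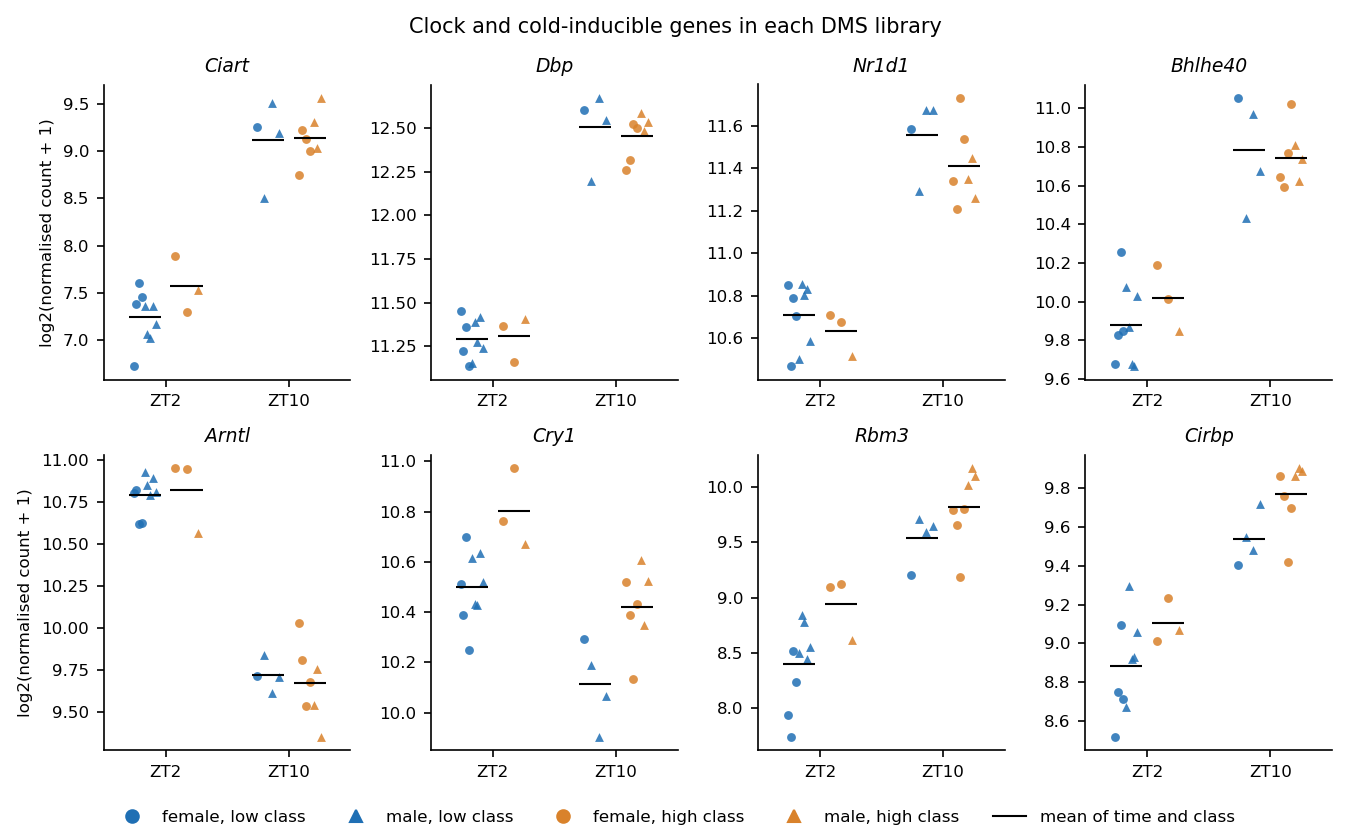
Levels of 8 clock and cold-inducible genes in each of the 23 DMS libraries at ZT2 and ZT10 (log2 of normalised count plus 1; each panel has its own axis and does not start at 0), with circles for females, triangles for males, blue for the low and orange for the high library class, and bars for the mean of each time and class. Ciart, Dbp, Nr1d1, Bhlhe40, Rbm3 and Cirbp sit higher at ZT10 and Arntl lower with no overlap, while Cry1 is lower at ZT10 within each class.

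The promoters of 5 called clock genes, 3 that rose and 2 that fell, are shown as examples that hold a match, because the loop is known to work through E-boxes, D-boxes and receptor elements. Each is the 250 bases before the RefSeq start (GRCm38.p6), printed 5′ to 3′ on the gene's own strand, with capitals for matches on either strand to CACGTG (canonical E-box), AACGTG (a variant E-box), TTATGTAA or TTACGTAA (D-box), TAGGTCA or TGGGTCA (nuclear receptor half-sites with a flanking base) and TGACGTCA (cyclic AMP element).
Ciart (chr3:95882229-95882478, minus strand): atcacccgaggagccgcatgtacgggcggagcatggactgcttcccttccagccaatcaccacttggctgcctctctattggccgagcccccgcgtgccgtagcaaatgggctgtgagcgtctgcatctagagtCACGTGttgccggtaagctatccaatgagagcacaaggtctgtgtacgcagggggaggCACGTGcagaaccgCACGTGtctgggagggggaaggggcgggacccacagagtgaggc
Nr1d1 (chr11:98775378-98775627, minus strand): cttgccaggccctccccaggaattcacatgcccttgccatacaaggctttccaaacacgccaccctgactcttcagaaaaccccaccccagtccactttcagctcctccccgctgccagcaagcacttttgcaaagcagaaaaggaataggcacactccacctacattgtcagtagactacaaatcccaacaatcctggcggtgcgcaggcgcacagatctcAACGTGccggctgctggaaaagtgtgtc
Per3 (chr4:151044666-151044915, minus strand): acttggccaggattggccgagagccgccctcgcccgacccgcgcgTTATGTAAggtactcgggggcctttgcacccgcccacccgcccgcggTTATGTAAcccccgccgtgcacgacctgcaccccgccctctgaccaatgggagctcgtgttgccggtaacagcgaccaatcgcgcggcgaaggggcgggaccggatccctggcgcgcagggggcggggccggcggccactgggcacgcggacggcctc
Cry1 (chr10:85185055-85185304, minus strand): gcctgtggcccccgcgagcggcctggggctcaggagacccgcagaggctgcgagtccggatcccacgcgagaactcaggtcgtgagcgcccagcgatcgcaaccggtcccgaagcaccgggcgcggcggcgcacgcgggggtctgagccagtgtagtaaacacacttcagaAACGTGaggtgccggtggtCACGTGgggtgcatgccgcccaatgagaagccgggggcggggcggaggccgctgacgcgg
Nfil3 (chr13:52981040-52981289, minus strand): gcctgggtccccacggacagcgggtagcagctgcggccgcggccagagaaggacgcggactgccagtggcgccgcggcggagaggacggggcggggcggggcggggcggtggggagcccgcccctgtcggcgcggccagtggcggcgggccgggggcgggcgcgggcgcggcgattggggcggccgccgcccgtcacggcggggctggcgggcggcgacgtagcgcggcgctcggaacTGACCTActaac
Of 19 called clock genes 18 had a promoter in the table, 11 of these held a match to any of the motifs, and 7 held none: Arntl, Clock, Npas2, Nr1d2, Dbp, Usp2 and Klf9. Genes with several starts had several windows. The share of all genes with a match to any of the motifs is not given, so whether 11 of 18 is unusual cannot be judged. Ciart, with the largest rise, holds 3 canonical E-boxes, starting 116, 58 and 44 bases before the start site. Cry1, which fell, holds both a variant and a canonical E-box (79 and 60 bases before), Nr1d1 a variant E-box at 28, Per3 a pair of identical D-boxes at 205 and 158, and Nfil3 a receptor element on the other strand at 12 bases before its start. Among 9209 measured genes with such a promoter, CACGTG was in 10.29%, against 33 of 204 genes called higher (16.18%) and 33 of 282 called lower (11.7%). TTATGTAA was in 0.5429% of all, in 3 called higher (1.471%) and in 4 called lower (1.418%). TAGGTCA was in 1.759% of all, in 1 called higher (0.4902%) and in 10 called lower (3.546%), and TGGGTCA in 3.203%, 3.922% and 3.901%. TGACGTCA was in 3.29% of all, 1.961% of those higher and 4.965% of those lower, AACGTG in 5.299%, 5.882% and 4.965%, and TTACGTAA in 0.1737% of all, 0 called higher and 1 called lower. These shares are descriptions of short windows and were not tested.

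Of 11 output factors, 5 rose, 1 fell and 5 were not called (list median 0.13, 54.5% called against 5.16% of all genes). Dbp (ENSMUSG00000059824, chromosome 7, 45705088 to 45710203, plus strand), the D-box activator, had the lowest adjusted p of all named genes: 11.13, 11.32 and 11.45 at ZT2 against 12.20, 12.52 and 12.67 at ZT10, a rise of 1.18 ± 0.06 or 2.26-fold (adjusted p = 1.5e-13) without overlap. Its relatives Tef and Hlf rose less, by 0.37 ± 0.05 (adjusted p = 6.6e-05) and 0.30 ± 0.05 (adjusted p = 0.00014). Usp2, a deubiquitinase under clock control, rose by 0.42 ± 0.05 (adjusted p = 8.4e-07), and Klf9, a hormone-responsive zinc finger factor, by 0.27 ± 0.05 (adjusted p = 0.00039). Nfil3 (E4BP4), the D-box repressor, was the member that fell, by 0.61 ± 0.16 (adjusted p = 0.019), from 6.83, 7.32 and 7.73 to 5.80, 6.59 and 7.27. The call on Nfil3 was lost without the ZT10 male M17 (adjusted p = 0.062), without the ZT2 male M31 (adjusted p = 0.067) and with an equal sum (adjusted p = 0.0703). Klf15, Klf10, Wee1, Klf13 and Nampt lay between -0.06 and 0.13 and were not called. None of 10 kinases and ubiquitin factors of the clock was called by limma or by voom. At an unadjusted p under 0.05 there was 1 of the 10, against 2161 of all 12101 genes.

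**Figure D2:**
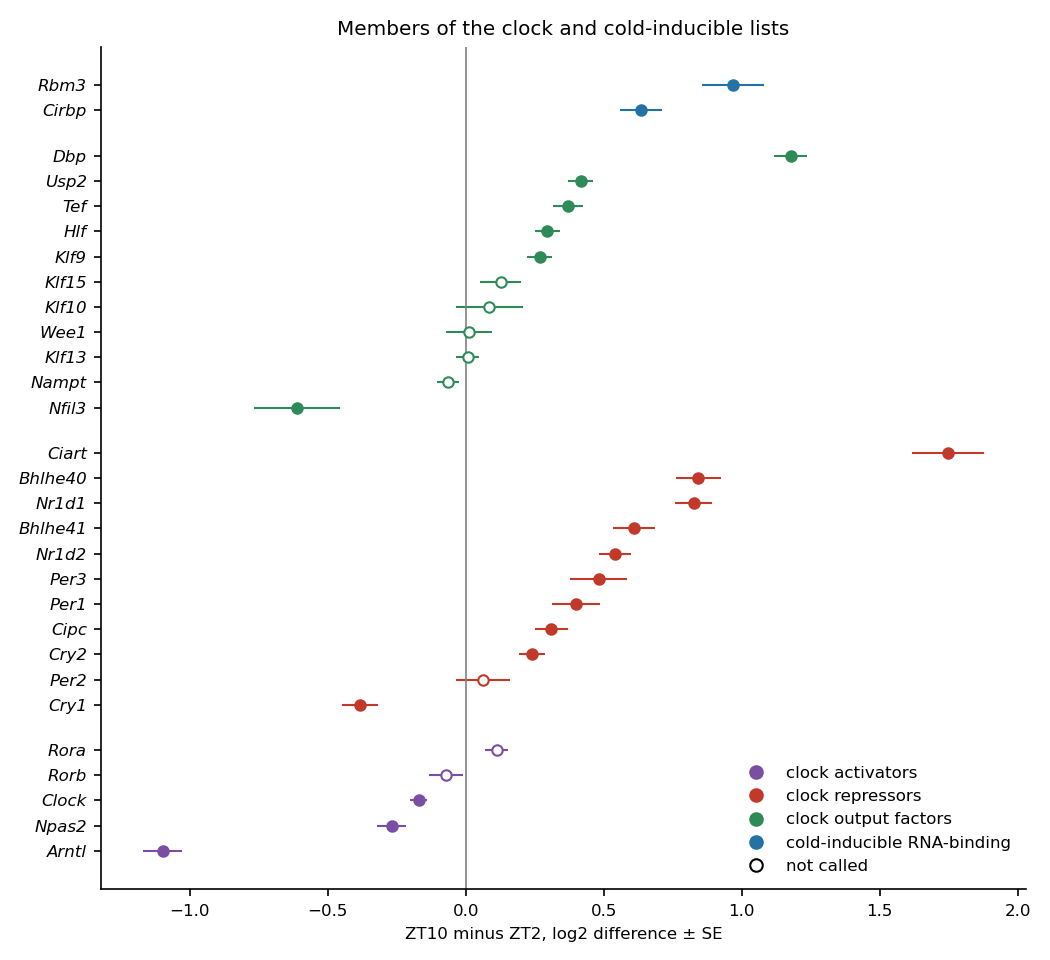
ZT10 minus ZT2 difference (log2, ± SE, limma with sex and class) of every measured member of the clock activator, repressor and output lists and the cold-inducible list, with filled points for called genes and open points for the rest. Repressors range from -0.38 (Cry1) to 1.75 (Ciart), and Arntl at -1.10 is the lowest activator.

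Both cold-inducible RNA-binding genes, whose transcripts accumulate when brain temperature drops, rose. Rbm3 (chromosome X, 8138975 to 8145880, minus strand) lay at 7.74, 8.54 and 9.13 at ZT2 and at 9.19, 9.71 and 10.17 at ZT10, a rise of 0.97 ± 0.11 or 1.96-fold (adjusted p = 2.1e-06). Cirbp (chromosome 10, 80165985 to 80172786, plus strand) went from 8.52, 8.97 and 9.30 to 9.40, 9.72 and 9.90, a rise of 0.63 ± 0.08 or 1.55-fold (adjusted p = 4.3e-06). The groups did not overlap for either gene.

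Heat shock proteins and their partners gave falls only. Of 14 heat shock genes and factors 6 fell and none rose (list median -0.16, 42.9% called against 5.16% of all genes). Those that fell were Hspa8, Hsph1, Hspa4, the heat shock factor Hsf1, Hspa4l and Hsp90aa1. The 14 include the mitochondrial Hspd1, Hspe1 and Hspa9, which differed by -0.10, -0.09 and 0.01 and were not called. Hspa8, the constitutive HSP70, lay between 15.62 and 15.81 in the low class at ZT2 (n = 9) and between 15.16 and 15.41 at ZT10 (n = 4), and between 15.94 and 16.04 (n = 3) and 15.66 and 15.79 (n = 7) in the high class. Within each class all ZT10 libraries were lower, a fall of 0.38 ± 0.04 or 1.30-fold (adjusted p = 2.7e-07). Hsph1 (HSP110), the nucleotide exchange factor of HSP70, went from 13.57, 13.81 and 13.88 to 12.92, 13.32 and 13.49 without overlap and fell by 0.37 ± 0.05 (adjusted p = 1.4e-05). Hsf1, which drives the heat shock response, fell by 0.29 ± 0.07 (adjusted p = 0.0083) and Hspa4 by 0.17 ± 0.03 (adjusted p = 0.0016). Hsp90ab1, the constitutive HSP90, differed by -0.12 and did not pass the test (adjusted p = 0.074).

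The co-chaperones of HSP70 and HSP90 gave 8 falls and no rise among 18 (list median -0.12, 44.4% called against 5.16% of all genes). Ahsa1, the activator of the HSP90 ATPase, went from 10.52, 10.64 and 10.88 to 10.16, 10.34 and 10.49 without overlap (fell by 0.33 ± 0.05, adjusted p = 4.2e-05). Stip1 (HOP), which bridges HSP70 and HSP90, went from 11.77, 11.90 and 12.05 to 11.52, 11.61 and 11.75, also apart (fell by 0.24 ± 0.04, adjusted p = 0.00029). Dnajb5, an HSP40 family member, fell by 0.44 ± 0.07 (adjusted p = 9.7e-05) and Chordc1 by 0.40 ± 0.07 (adjusted p = 0.00033).

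Chaperones of the endoplasmic reticulum gave falls too. Of 23 genes of this compartment and its unfolded protein response 11 fell and none rose (list median -0.18). The share called was 47.8%, against 5.16% of all genes. Hspa5 (BiP; chromosome 2, 34771970 to 34777547, plus strand), the HSP70 of that compartment, went from 13.02, 13.20 and 13.73 to 12.37, 12.92 and 13.07, a fall of 0.51 ± 0.08 or 1.42-fold (adjusted p = 9.7e-05). Calr, the calcium-binding lectin chaperone calreticulin, showed how far the classes differ: 13.52 to 13.74 (low class, n = 9) and 14.02 to 14.10 (high class, n = 3) at ZT2, against 13.02 to 13.43 (n = 4) and 13.64 to 13.81 (n = 7) at ZT10. It was lower at ZT10 within each class, by 0.37 ± 0.04 in the joint fit (adjusted p = 4.3e-06), but without the class term the fall was 0.17 and not called (adjusted p = 0.26). Pdia6, a disulfide isomerase, fell by 0.40 ± 0.06 (adjusted p = 0.00013) and Hsp90b1 (GRP94) by 0.22 ± 0.04 (adjusted p = 0.0024). The transducers behaved unequally: Xbp1 fell by 0.24 (adjusted p = 0.0046) and Atf6 by 0.15 (adjusted p = 0.029), while Atf4 differed by 0.00 (adjusted p = 0.99). With libraries scaled to an equal sum, 2, 3 and 4 members of the 3 chaperone lists were called, and Hspa4, Hsf1, Stip1 and Hsp90b1 were not among them. Within the high class alone the lists had 1, 0 and 3 calls, and within the low class alone 7, 6 and 7.

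**Figure D3:**
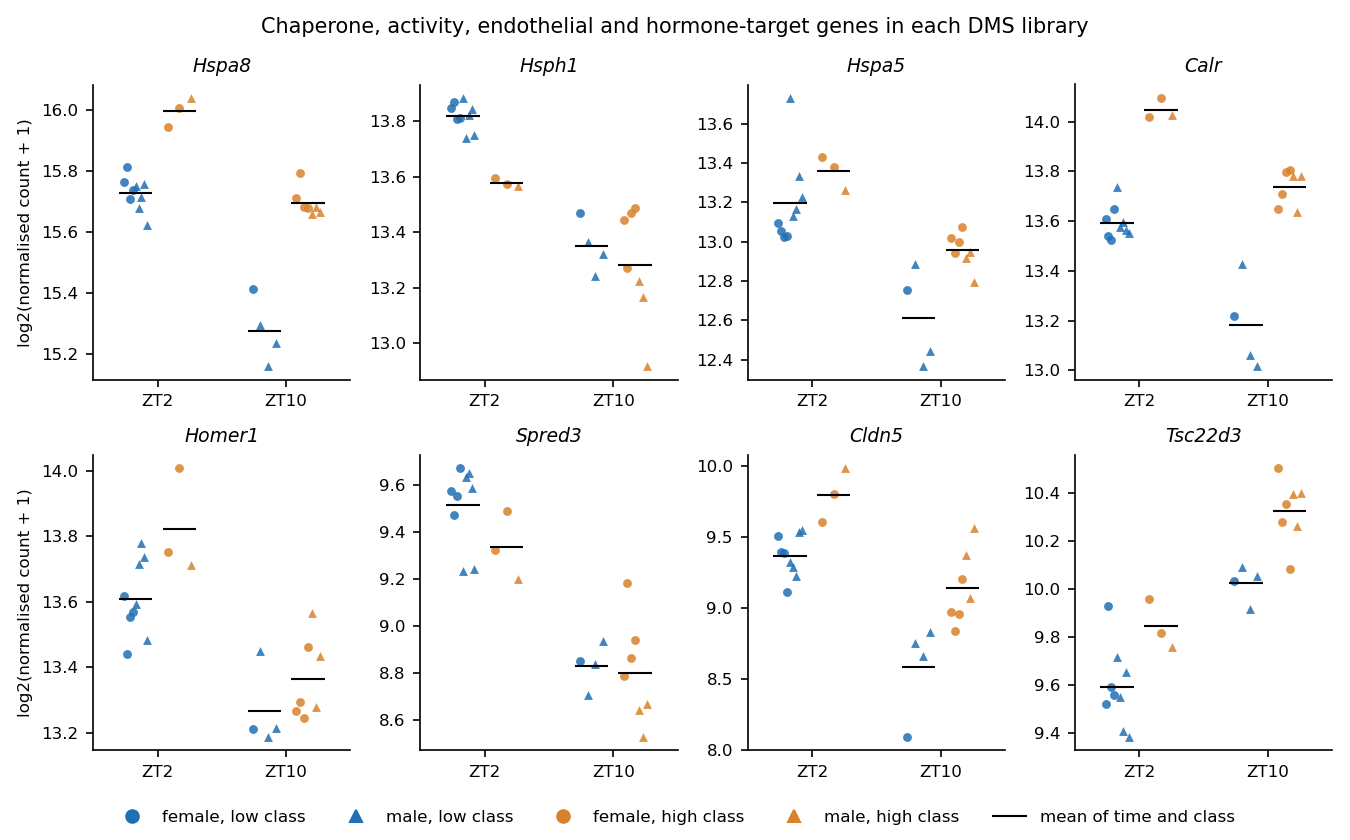
Levels of 8 further genes in each of the 23 DMS libraries at ZT2 and ZT10 (log2 of normalised count plus 1; axes do not start at 0; circles females, triangles males, blue low and orange high library class, bars the mean of each time and class). Hspa8 and Calr are lower at ZT10 within each class although the classes lie apart, Hsph1 and Spred3 are lower without overlap, and Tsc22d3 is higher.

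Among 17 targets of the glucocorticoid receptor 6 rose and none fell (list median 0.08, 35.3% called against 5.16% of all genes). Tsc22d3 (GILZ), an anti-inflammatory target of the receptor, went from 9.38, 9.62 and 9.96 to 9.92, 10.26 and 10.50 with the ranges meeting only at their edges (rose by 0.46 ± 0.06, adjusted p = 1.9e-05). Zbtb16 (PLZF), a zinc finger factor, rose by 0.70 ± 0.12 (adjusted p = 0.00039), the kinase gene Sgk1 by 0.52 ± 0.09 (adjusted p = 0.00079) and Nfkbia, the inhibitor of NF-kappaB, by 0.42 ± 0.08 (adjusted p = 0.0019). Cdkn1a, the cell cycle inhibitor p21, rose by 0.79 ± 0.16 (adjusted p = 0.0027), and Per1, counted above as a repressor, was the sixth. Fkbp5, a feedback regulator of the receptor, differed by 0.08 and was not called (adjusted p = 0.4). Neither receptor gene was called by limma or voom (1 of 2 at an unadjusted p under 0.05): Nr3c1 differed by -0.10 ± 0.04 and Nr3c2 by 0.04 ± 0.06.

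Among 21 immediate early genes, which respond to neuronal firing, 4 fell and 1, Per1, rose (23.8% called, against 5.16% of all genes). The list median was -0.32, and 19 of the 21 had a negative difference. These genes also differed between the library classes (median of -0.73 for high minus low, 17 of 21 called). Within the low and the high class alone 3 and 2 members were called for time. Fosl2 (FRA2), an AP-1 subunit, went from 9.51, 10.17 and 10.96 to 7.78, 8.84 and 9.87, a fall of 1.06 ± 0.16 or 2.09-fold (adjusted p = 0.00012). Homer1, a postsynaptic scaffold gene with an activity-induced short form, fell by 0.41 ± 0.05 (adjusted p = 1.2e-05), from 13.44, 13.66 and 14.01 to 13.19, 13.28 and 13.56. Nptx2, a secreted organiser of excitatory synapses, fell by 0.46 ± 0.11 (adjusted p = 0.0095) and Egr1 by 0.52 (adjusted p = 0.01). Fos, Arc and Npas4 differed by -0.67, -0.50 and -0.43 and did not pass the test (adjusted p = 0.3, 0.21 and 0.57). Of the 12 negative feedback regulators of ERK signalling 3 fell (list median -0.18, 25% called against 5.16% of all genes). Spred3 went from 9.20, 9.52 and 9.67 to 8.53, 8.84 and 9.18, just without overlap, and fell by 0.59 ± 0.07 (adjusted p = 2.8e-06). Spred1 fell by 0.24 ± 0.04 (adjusted p = 0.00065) and Spred2 by 0.15 ± 0.04 (adjusted p = 0.031), the latter a call lost without any of 5 libraries (F18, F31, M17, M18 and M31, adjusted p up to 0.075) and with an equal sum or all 70 DMS libraries. Spred1 was not called without the class term (adjusted p = 0.46).

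Genes of cholesterol synthesis and uptake included 5 rises and 1 fall among 23 (list median 0.06, 26.1% called against 5.16% of all genes). Lss, lanosterol synthase, rose by 0.39 ± 0.06 (adjusted p = 0.00014), Fdft1, squalene synthase, by 0.22 ± 0.04 (adjusted p = 0.0027) and Hmgcs1 by 0.15 (adjusted p = 0.027). Insig2, an inhibitor of the pathway, fell by 0.21 (adjusted p = 0.022). Without the class term Lss was not called (adjusted p = 0.24). With an equal sum 3 members were called, and within each class alone 1.

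Splicing factors of the Srsf, Hnrnp and Clk families gave 7 falls and no rise among 35 (list median -0.08, 20% called against 5.16% of all genes). Hnrnpc fell by 0.23 ± 0.03 (adjusted p = 6.4e-05), Hnrnpm by 0.24 ± 0.04 (adjusted p = 0.00041), Hnrnph3 by 0.21 ± 0.05 (adjusted p = 0.0078) and Srsf1 by 0.19 ± 0.05 (adjusted p = 0.011). Without F18 the list had 4 calls, with an equal sum 1 and within the high class alone 0, and without the class term Hnrnpc was not called (adjusted p = 0.55). No call was made among 80 cytosolic ribosomal protein genes, 78 nuclear genes of oxidative phosphorylation and 13 mitochondrially encoded protein genes, by limma or by voom. At an unadjusted p under 0.05 there were 0, 7 and 0, against 2161 of all 12101 genes. In the fit with the class term ribosomal protein genes ranged only from -0.11 to 0.10 between the times, although 79 of 80 differed between the library classes. Plain differences of means, with no class term, were 0.404 for Rpl41, 0.345 for Rpl10a, 0.322 for Rpl3 and 0.167 for Rpl23. Within the low class alone 2 ribosomal protein genes were called, and 0 without the class term.

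**Figure D4:**
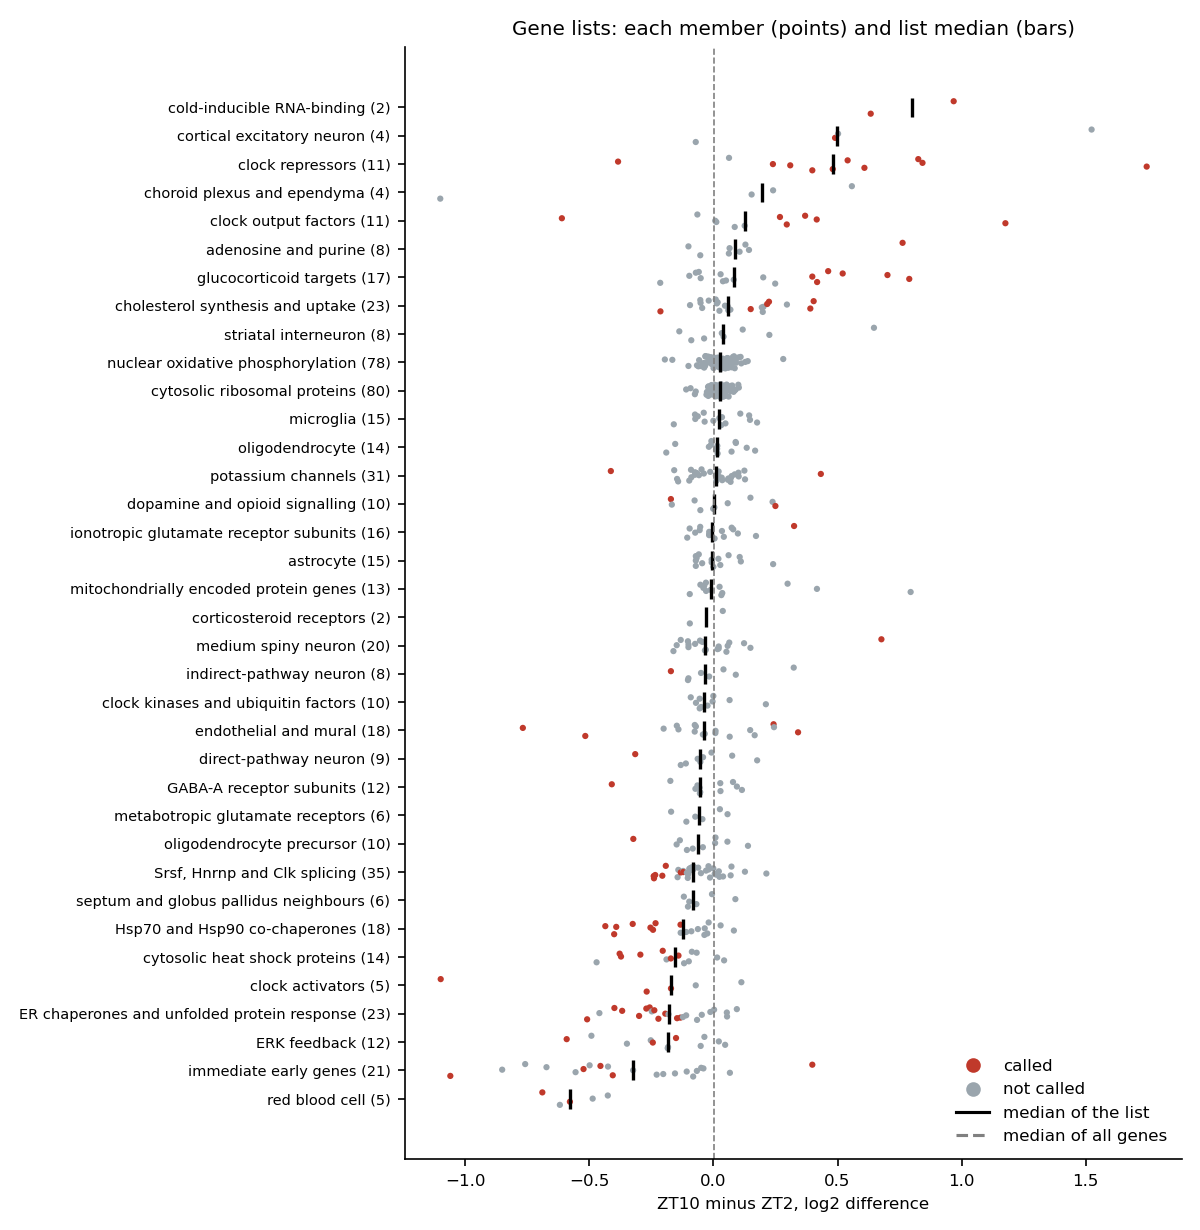
ZT10 minus ZT2 difference (log2) of each measured member of 36 gene lists (number of members in brackets), red where called and grey where not, with a bar at the median of each list and a dashed line at the median of all 12101 genes. Called members of the chaperone lists lie to the left of the dashed line and those of the cold-inducible list and the glucocorticoid targets to the right, and no ribosomal protein gene is called.

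Among 20 genes of medium spiny neurons 1 was called, a share near the 5.16% of all genes. It was Camkk1, a kinase upstream of CaM kinases and AMPK, which went from 10.13, 10.46 and 10.63 to 10.61, 10.93 and 11.45 and rose by 0.68 ± 0.07 (adjusted p = 3.7e-07). The ranges touched only at the top of ZT2 and the bottom of ZT10. Ppp1r1b and Pde10a, the striatal phosphodiesterase, differed by 0.15 ± 0.05 and -0.15 ± 0.05 and were not called. Among 9 direct-pathway genes 1 was called (11.1%, against 5.16% of all genes), Sfxn1, which fell by 0.32 ± 0.05 (adjusted p = 0.00039). Drd2, the D2 dopamine receptor of the indirect pathway, fell by 0.17 ± 0.05 (adjusted p = 0.025), a call lost without F18, M16 or M31 (adjusted p = 0.078, 0.059 and 0.082), with an equal sum (adjusted p = 0.21) and with all 70 DMS libraries (adjusted p = 0.091). Oprl1, the nociceptin receptor, rose by 0.25 ± 0.07 (adjusted p = 0.044), a call lost on leaving out any of 15 of the 23 libraries (without F18 at an adjusted p of 0.19), with an equal sum and with all 70 DMS libraries (adjusted p = 0.13 and 0.097).

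The lists of GABA-A receptor, ionotropic glutamate receptor and potassium channel genes had 8.33%, 6.25% and 6.45% of their members called, near the 5.16% of all genes, and their calls are given as single genes. Gabra2, an alpha subunit of the GABA-A receptor, was the one of 12 subunits called: it went from 10.63, 10.86 and 11.13 to 10.21, 10.36 and 10.54 without overlap and fell by 0.41 ± 0.06 (adjusted p = 2.9e-05). Grik5, a kainate receptor subunit, rose by 0.32 ± 0.05 (adjusted p = 0.00034), alone among 16 ionotropic glutamate receptor genes, and lost its call without the class term (adjusted p = 0.083). No metabotropic glutamate receptor gene of 6 was called by limma or voom (1 at an unadjusted p under 0.05). Of 31 potassium channel genes the voltage-gated Kcna5 rose by 0.43 ± 0.06 (adjusted p = 4.2e-05) and the calcium-activated Kcnn3 fell by 0.41 ± 0.06 (adjusted p = 0.00013). Of 8 adenosine and purine genes 1 was called (12.5%, against 5.16% of all genes). It was Xdh, xanthine dehydrogenase of purine breakdown, which rose by 0.76 ± 0.11 (adjusted p = 6.2e-05). Adora2a, the adenosine receptor of indirect-pathway neurons, differed by -0.10 ± 0.05 (adjusted p = 0.29).

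Several of the largest changes fell outside these lists. Ano2, a calcium-activated chloride channel, went from 8.88, 9.65 and 10.01 to 10.44, 10.88 and 10.97, apart in every library, and rose by 1.10 ± 0.10 or 2.14-fold (adjusted p = 5.1e-08). Rasl11b, a small GTPase of the Ras family, went from 7.19, 7.98 and 8.47 to 8.58, 9.08 and 9.19, also apart, and rose by 0.98 ± 0.14 (adjusted p = 3.3e-05). Fam117a rose by 0.72 ± 0.14 (adjusted p = 0.0018). Among the falls, Dlk2, a delta-like membrane protein gene, went from 6.38, 7.13 and 7.85 to 5.00, 5.84 and 6.36 with all ZT10 libraries lower, by 0.97 ± 0.18 (adjusted p = 0.00085).

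Pim1, a serine/threonine kinase gene, fell by 1.07 ± 0.25 (adjusted p = 0.011), from 6.19, 6.93 and 7.65 to 4.55, 5.71 and 6.76. Fmnl1, a formin that acts on actin, fell by 0.63 ± 0.06 (adjusted p = 1.5e-07) and Ubash3b, a tyrosine phosphatase gene, by 0.70 ± 0.12 (adjusted p = 0.00039). Lancl3 fell by 0.69 ± 0.16 (adjusted p = 0.011), a call lost without F18 (adjusted p = 0.068). Rsph3a, a radial spoke gene of cilia, fell by 0.72 ± 0.21 (adjusted p = 0.044), but the call was lost on leaving out any of 14 of the 23 libraries.

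Vessel genes moved in both directions, with 2 rises and 2 falls among 18 markers of endothelial and mural cells (list median -0.04). The share called was 22.2%, against 5.16% of all genes. Cldn5, the tight junction protein claudin-5 of the blood-brain barrier (chromosome 16, 18776847 to 18778262, plus strand), ranged from 9.11 to 9.55 (low class, n = 9) and 9.60 to 9.98 (high class, n = 3) at ZT2 and from 8.09 to 8.83 (n = 4) and 8.83 to 9.56 (n = 7) at ZT10. Within each class no ZT10 library reached the ZT2 range, and the fall was 0.77 ± 0.08 or 1.70-fold (adjusted p = 5.6e-07). Kdr, the VEGF receptor, fell by 0.52 ± 0.10 (adjusted p = 0.0021). Slc2a1, the glucose transporter GLUT1, rose by 0.34 ± 0.05 (adjusted p = 0.00011) and Slco1a4, an organic anion transporter, by 0.24 ± 0.06 (adjusted p = 0.013). The call on Slco1a4 was lost without F18 (adjusted p = 0.059). The summed level of the 18 markers lay between 14.01 and 14.39 at ZT2 and between 13.99 and 14.65 at ZT10 (log2).

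Red blood cell genes are given beside them. All 5 red blood cell genes had a negative difference (median -0.58) and 2 fell (40%, against 5.16% of all genes). These were the alpha globin genes Hba-a1 (by 0.69 ± 0.15, adjusted p = 0.0049) and Hba-a2 (by 0.58 ± 0.15, adjusted p = 0.025), near-identical copies whose reads can be exchanged in counting. The summed level of the 5 genes had medians of 10.38 and 10.10 at ZT2 and ZT10 in the low class and of 11.97 and 11.54 in the high class, within ranges of 10.13 to 12.26 and 9.63 to 11.87. The call on Hba-a2 was lost without F33, M17, M18 or M31 (adjusted p up to 0.079), and without M40 the list had 4 calls. Without the class term neither was called, at -0.08 for Hba-a1 and 0.01 for Hba-a2, nor with all 70 DMS libraries (adjusted p = 0.16 and 0.17). Cortical excitatory markers (4 measured, median 0.50) gave 1 call (25%, against 5.16% of all genes). Cux2 rose by 0.49 ± 0.13 (adjusted p = 0.025). The call was lost without F33 or M31 (adjusted p = 0.061 and 0.059), with an equal sum and with all 70 DMS libraries (adjusted p = 0.12 and 0.16). Without the class term the difference of Cux2 was -0.14 (adjusted p = 0.77). Slc17a7, the vesicular glutamate transporter of cortical neurons, ranged from 5.75 to 10.88 at ZT2 and from 5.91 to 10.89 at ZT10 and differed by 1.52 ± 0.63 (adjusted p = 0.18). The summed level of the 4 markers lay between 11.06 and 12.12 at ZT2 and between 10.79 and 12.22 at ZT10. The part of blood or neighbouring cortex in the other results was not tested.

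The remaining marker lists gave 1 call. By limma and by voom, no call was made among 15 astrocyte, 14 oligodendrocyte, 15 microglia, 8 interneuron, 4 choroid plexus and ependyma, and 6 septum and pallidum markers. At an unadjusted p under 0.05 these lists had 1, 3, 1, 1, 0 and 1, against 2161 of all 12101 genes. Among 10 markers of oligodendrocyte precursors 1 was called (10%, against 5.16% of all genes). It was Vcan, a matrix proteoglycan, which fell by 0.32 ± 0.07 (adjusted p = 0.0087). Pdgfra, the defining receptor, differed by 0.14 ± 0.04 (adjusted p = 0.055). Ttr, the transthyretin gene of choroid plexus, ran from 0.00 to 16.12 at ZT2 and from 1.40 to 15.82 at ZT10, so some punches carried far more of it than others at both times.

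Over the 6 times of the DMS table the ZT2 and ZT10 samples lay near the extremes for part of these genes only. Mean Arntl was highest at ZT2 (10.80 ± 0.13, SD, n = 12) and lowest at ZT10 (9.69 ± 0.18, n = 11), and mean Dbp ran from its lowest at ZT2 (11.30 ± 0.11) to its highest at ZT10 (12.47 ± 0.15). Ciart had the same lowest and highest times (7.32 ± 0.31 and 9.14 ± 0.31). Nr1d1 also had its highest mean at ZT10 (11.46 ± 0.19) but its lowest at ZT22 (10.15 ± 0.33, n = 12). Other genes were caught between their extremes: Per2 was lowest at ZT6 (9.69 ± 0.51, n = 12) and highest at ZT18 (10.87 ± 0.31, n = 12), and stood at 10.28 ± 0.36 and 10.11 ± 0.35 at ZT2 and ZT10. Cry1 and Hspa5 were likewise lowest at ZT6 (10.17 ± 0.26 and 12.71 ± 0.25) and highest at ZT18 (10.96 ± 0.18 and 13.63 ± 0.19). Tsc22d3 and Rbm3 peaked at ZT14, at 10.67 ± 0.30 and 9.80 ± 0.37 (n = 11). These means carry no adjustment for class and were not tested.

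**Figure D5:**
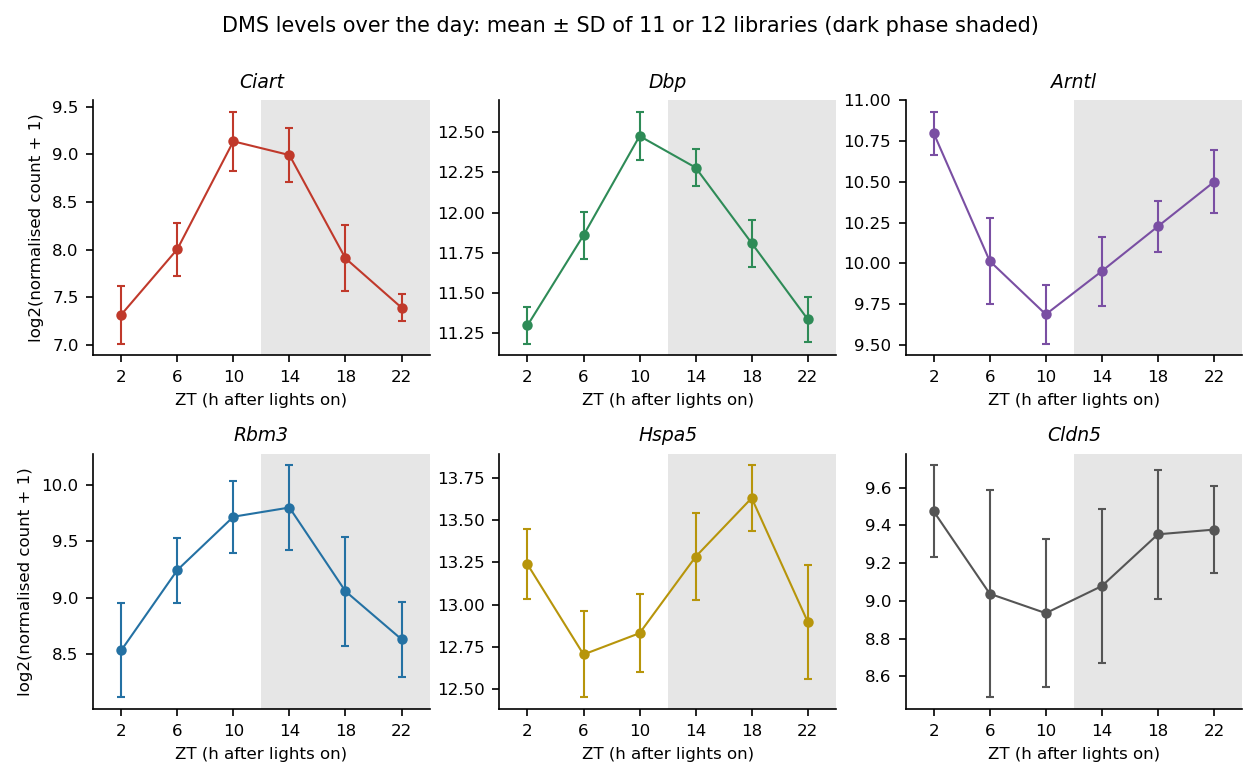
Mean level in DMS (log2 of normalised count plus 1, ± SD over 11 or 12 libraries) of 6 genes at the 6 times of the series in hours after lights on, with the dark phase shaded and axes that do not start at 0. Ciart and Dbp have their lowest mean at ZT2 and their highest at ZT10, Arntl the reverse, Rbm3 is highest at ZT14, and Hspa5 is lowest at ZT6 and highest at ZT18.

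The dorsolateral striatum (DLS, 11 libraries at each time) and the nucleus accumbens (NAc, 13 and 12) are set beside the DMS as plain differences of means, in tables normalised separately and partly from the same mice, with no test. These values have no term for sex or class, so the DMS values here are not those of the fit above. In the order DMS, DLS and NAc, Ciart differed by 1.82, 2.33 and 1.41, Dbp by 1.18, 1.40 and 0.89, Nr1d1 by 0.77, 0.96 and 0.53, and Arntl by -1.11, -1.27 and -0.96. Rbm3 had 1.18, 0.98 and 1.41 and Cirbp 0.75, 0.72 and 0.82. Each of these 6 clock and cold-inducible genes had the same sign in the 3 regions. Per1 differed by 0.21, 0.71 and 0.11, Kcna5 by 0.37, 0.74 and 0.03, and Ano2 by 1.17, 1.48 and 0.56. Hspa5 had -0.41, -0.64 and -0.54, Homer1 -0.34, -0.55 and -0.29, and Cldn5 -0.54, -0.75 and -0.92. The globin gene Hba-a1 differed by -0.07, -0.42 and 0.02, and Cux2 by -0.13, 0.00 and 0.04.

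The change was compared between the sexes and between the classes with interaction terms. In females and males Dbp rose by 1.20 ± 0.08 and 1.16 ± 0.07, and Arntl fell by 1.12 ± 0.09 and 1.10 ± 0.07. For 1 gene the change itself differed between the sexes: Htr1b, a serotonin receptor gene, with 1518 genes at an unadjusted p under 0.05. Rbm3 rose by 0.72 in females and 1.15 in males and Fosl2 fell by 0.82 and 1.26, differences between the sexes that did not pass the test. Without F18, the 1 low-class female at ZT10, the change differed between the sexes in 161 genes. All ZT10 females were then of the high class, so sex and class could not be fully separated at ZT10 in that fit. In the full fit F18 alone stood for low-class females at ZT10. Between the classes 0 genes differed in their change by limma (477 at an unadjusted p under 0.05) and 0 by voom. Ciart rose by 1.90 ± 0.18 in the low and 1.56 ± 0.16 in the high class, and Dbp by 1.22 ± 0.08 and 1.13 ± 0.07.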

How the data were processed

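Punches of the DMS were profiled as stranded total RNA in paired reads of 75 bp. Per the labels' design text, the authors aligned reads with HISAT2 2.1.0 to GRCm38 and counted genes with HTSeq 0.10.0, and the submitters' processing notes also name GRCh38, which the mouse gene identifiers contradict. The authors filtered and normalised each region separately with DESeq2, and the deposited values are log2 values, here log2 of the normalised count plus 1. All values of the 23 libraries were whole reads times a library's own step (tolerance 0.01 reads), which gave the depth. Names and coordinates came from GENCODE M21 for 12073 of 12101 genes, and promoters from RefSeq.

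Differences were fitted in limma 3.58.1 (R 4.3.3) with a variance trend, sex and class, no filter added, and checked on simulated data. Tables and plots were made in Python 3.11.15 with matplotlib 3.10.9, numpy 2.4.6 and pandas 2.3.3. The members, gene lists and tests were chosen with earlier results of these data known. Named genes were the 10 largest rises and falls called with 1 sign in both sexes and classes (without predicted genes), all clock and cold-inducible members, and up to 4 genes of lowest p of each other list. Other list members given with values, such as Fos, Egr1, Fkbp5 and Xbp1, were chosen after their values were seen. Some members are not reported here. The labels give an animal per library, so p-values measure the spread between mice. Alternatives changed the class term, the sexes, the scaling, the variance model, the pseudocount (8) and the libraries used, and whole reads were also fitted with voom.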

Additional observations from a re-analysis of the deposited data

Results flagged for a closer look

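Htr1b, which encodes the serotonin 1B receptor, was the gene whose change between the times differed between the sexes. Its male minus female difference of the change was -0.50 ± 0.08 (log2, SE, limma interaction term, adjusted p = 0.0169). In males it lay at 11.14, 11.43 and 11.54 (lowest, median and highest of 6) at ZT2 and at 10.66, 10.94 and 11.11 (of 6) at ZT10, without overlap, a difference of -0.41 with the class term. In females it lay at 10.96, 11.08 and 11.28 (of 6) at ZT2 and at 10.92, 11.06 and 11.23 (of 5) at ZT10, a difference of 0.05. On leaving out each of the 23 libraries the difference ranged from -0.53 to -0.47, and the call was lost without F39, F40, M7, M8 or M40 (adjusted p up to 0.0642).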

How the results depend on the processing

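No paired analysis was possible because no animal was sampled at both times. Beside the 625 called genes, 374 were called within the low class (119 higher; 279 shared with the 625), 51 within the high class (26 higher, 25 lower; 50 shared), 103 in females (48 and 55; 98 shared), 263 in males (104 and 159; 216 shared) and 254 with an equal sum of normalised counts (123 and 131; 250 shared). Leaving out each library gave 411 to 632 calls, 177 to 316 higher and 230 to 369 lower, and 0 to 161 genes whose change differed between the sexes. The 161 came without F18, which left no low-class female at ZT10. Without the class term, 406 of the 625 were called, 23 had the other sign, and Cux2 (-0.1365, adjusted p = 0.775) and Hba-a2 (0.009523, adjusted p = 0.986) turned direction. The cause was not tested. Under the other alternatives (all 70 DMS libraries, rRNA share as covariate, no sex term, equal median, a minimum mean, no variance trend, voom, pseudocount 8) the count of calls stayed within 1.5 times. With an equal sum outside the 10 most abundant genes 676 were called, and rises outnumbered falls (351 and 325). Without M16 rises and falls were equal, at 316 each. Of 78 called named genes, 78 were called by voom and 61 with an equal sum. The 3 high-class libraries at ZT2 and 4 low-class libraries at ZT10 limit the precision.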
